A study of Mus musculus with 6 samples.

Results

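The CLEC genes encode C-type lectins, proteins with a carbohydrate-recognition-type fold, and their RNA was measured here in sorted GMPs, the granulocyte-macrophage progenitors of bone marrow on their way to becoming granulocytes and monocytes. Members were all genes of the count table whose mouse symbol begins with Clec followed by a digit: 33 of 37620 genes. Of these, 26 had at least 1 read and 7 had none. The 18 members with a mean normalized count of at least 10 over all libraries were compared between groups, and the other 8 with reads were not tested. The 6 libraries came from C57BL/6 mice aged 65 days and formed 2 groups of 3: controls of genotype Bap1 f/f without Cre, and mice carrying Mx1-Cre with Bap1 f/f, labelled Bap1 knockout. All mice had received polyI:polyC, which switches on Cre through the interferon-inducible Mx1 promoter. The labels place it at 42 days of age and the design text at 3 weeks. Cre was carried by the knockout-labelled group only, so an effect of Cre and an effect of Bap1 loss cannot be told apart, and Mx1 is active in many cell types besides GMPs. Nothing in the labels ties each library to an animal of its own, so the p-values measure the spread between these libraries.

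Most CLEC proteins are receptors on myeloid cells that read glycans, microbial walls or debris of dead cells. Inhibitory members such as Clec4a2 and Clec12a carry an ITIM, a tyrosine motif that recruits phosphatases. Activating members either pair with an adaptor, FcRγ (Fcer1g) or DAP12 (Tyrobp), or carry a tyrosine motif of their own as Clec7a does, and both routes run through the kinase Syk to Card9 and NF-κB. Other members are ligands of natural killer (NK) cell receptors, scavenging receptors or secreted proteins.

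Bap1 itself was at 1343, 998 and 1076 normalized counts in the control libraries and at 2671, 3309 and 2968 in those labelled knockout. It was thus higher, not lower, although the label names a knockout (log2 fold change 1.39, limma adjusted p = 6.07e-05). A count over the whole gene does not check the deletion, so directions below are those of the libraries labelled knockout. Gene reads came to 24.1 to 25.9 M per control library and 19.5 to 24.1 M per knockout-labelled library. Xist marked control replicate 1 and knockout replicate 3 as female. GMP genes were abundant in both groups, Mpo at a mean of 509919 and 635306 and Elane at 268365 and 444320.4. Of 10 tested GMP markers, 4 were higher and 2 lower in knockout-labelled libraries, beside 11.8% and 15.0% of all genes tested. The lower ones were Cd34 and Fcgr3, both surface proteins by which GMPs are sorted. Kit, another such protein, was among the higher ones (log2 fold change 0.47, limma adjusted p = 0.0214). In bulk RNA, fewer cells of a type and less RNA per cell cannot be told apart.

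The sequences upstream of 6 members are shown because their levels carry the results: Clec4a2, Clec4b2 and Clec2i were higher, Clec5a and Clec7a lower, and Clec12a was the member with the highest level. Each is the 200 bases before the RefSeq transcription start, written 5′ to 3′ on the gene's own strand, from the GRCm38.p6 assembly. The windows lie at chr6:123122490-123122689 (plus strand) for Clec4a2, chr6:123172823-123173022 (plus) for Clec4b2, chr6:128887387-128887586 (plus) for Clec2i, chr6:129350044-129350243 (plus) for Clec12a, chr6:40585806-40586005 (minus) for Clec5a and chr6:129472780-129472979 (minus) for Clec7a. Capitals mark matches, on either strand, to the motifs named after the sequences.
Clec4a2: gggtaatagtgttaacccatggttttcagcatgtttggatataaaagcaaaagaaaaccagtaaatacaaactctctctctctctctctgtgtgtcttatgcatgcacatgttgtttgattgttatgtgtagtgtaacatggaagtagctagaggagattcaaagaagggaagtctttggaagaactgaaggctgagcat
Clec4b2: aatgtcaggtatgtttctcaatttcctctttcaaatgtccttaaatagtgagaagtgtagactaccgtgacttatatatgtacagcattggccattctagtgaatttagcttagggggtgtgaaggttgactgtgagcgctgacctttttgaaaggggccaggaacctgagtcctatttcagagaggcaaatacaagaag
Clec2i: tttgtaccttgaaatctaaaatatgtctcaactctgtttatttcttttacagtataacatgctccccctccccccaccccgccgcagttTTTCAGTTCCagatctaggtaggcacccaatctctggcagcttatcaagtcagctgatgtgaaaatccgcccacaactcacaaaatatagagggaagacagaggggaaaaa
Clec12a: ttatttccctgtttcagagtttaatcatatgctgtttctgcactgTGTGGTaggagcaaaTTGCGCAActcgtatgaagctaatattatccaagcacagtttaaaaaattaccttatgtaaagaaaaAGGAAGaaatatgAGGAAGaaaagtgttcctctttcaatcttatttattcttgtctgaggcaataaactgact
Clec5a: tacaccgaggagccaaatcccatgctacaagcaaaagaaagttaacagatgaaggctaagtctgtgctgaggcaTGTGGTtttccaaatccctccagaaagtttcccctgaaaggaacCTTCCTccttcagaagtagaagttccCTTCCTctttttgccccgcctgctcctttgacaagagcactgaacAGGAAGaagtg
Clec7a: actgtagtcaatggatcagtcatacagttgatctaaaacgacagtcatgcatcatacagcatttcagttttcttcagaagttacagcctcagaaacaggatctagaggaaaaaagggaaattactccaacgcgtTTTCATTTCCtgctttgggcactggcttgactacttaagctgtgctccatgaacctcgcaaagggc
Promoters of 25 of the 33 members were found in the RefSeq table, which holds 27025 promoters, and 16 of these were of tested members. The motifs were those of factors known in myeloid cells. The ETS core AGGAAG was in 11 of 25 member windows and in 24.5% of all windows of that length, and its longer form GAGGAAGT, which overlaps it, in 0 of 25 and 2.10%. Clec5a held 3 cores and Clec12a 2. The composite ETS-IRF motif was in 2 of 25 windows against 1.90% of all, at bases -111 to -102 of Clec2i, which was higher, and at -66 to -57 of Clec7a, which was lower. The C/EBP motif TTGCNNAA was in 4 of 25 windows, Clec12a among them, and in 7.47% of all. The RUNX motif TGTGGT was in 5 of 25, Clec5a and Clec12a included, and in 11.3% of all. An AP-1 motif, TGANTCA, was in 4 of 25 and 5.55%, none of them upstream of a tested member, and the interferon response core in 2 of 25 and 2.33%. The windows of Clec4a2 and Clec4b2 held no match. Among the matched promoters of the 4 higher members and the 3 lower ones, no motif was in more than 1 of either set. These matches describe letters and show no binding.

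Between the groups, 9 of the 18 tested members passed the test (limma on log2(normalized count + 1), Benjamini-Hochberg adjusted p under 0.05 over all 14391 genes tested): 5 were higher and 4 lower in the knockout-labelled libraries. The background was 26.8% of all genes tested, 11.8% higher and 15.0% lower. These shares are also the background for each gene list, marker list and chromosome segment counted below. In 10 members the groups did not overlap, against 42.9% of all genes tested: 5 with all knockout-labelled libraries above all controls (background 20.4%) and 5 below (22.5%). Among all 18, the median log2 fold change was -0.32, beside 0.01 over all genes. It turned to 0.13 with a mean of at least 50 and to 0.04 with no filter beyond 1 read, which change the members tested to 14 and 26. A difference of at least 4-fold was called in 5 members, Clec7a, Clec4b2, Clec5a, Clec1b and Clec10a, against a background of 5.61%. Without control replicate 2 the all-gene calls fell from 1695 higher and 2163 lower to 1058 and 1422, and without control replicate 3 to 1105 and 1413. The CLEC calls without them were 5 and 5, and 5 and 3.

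**Figure D1:**
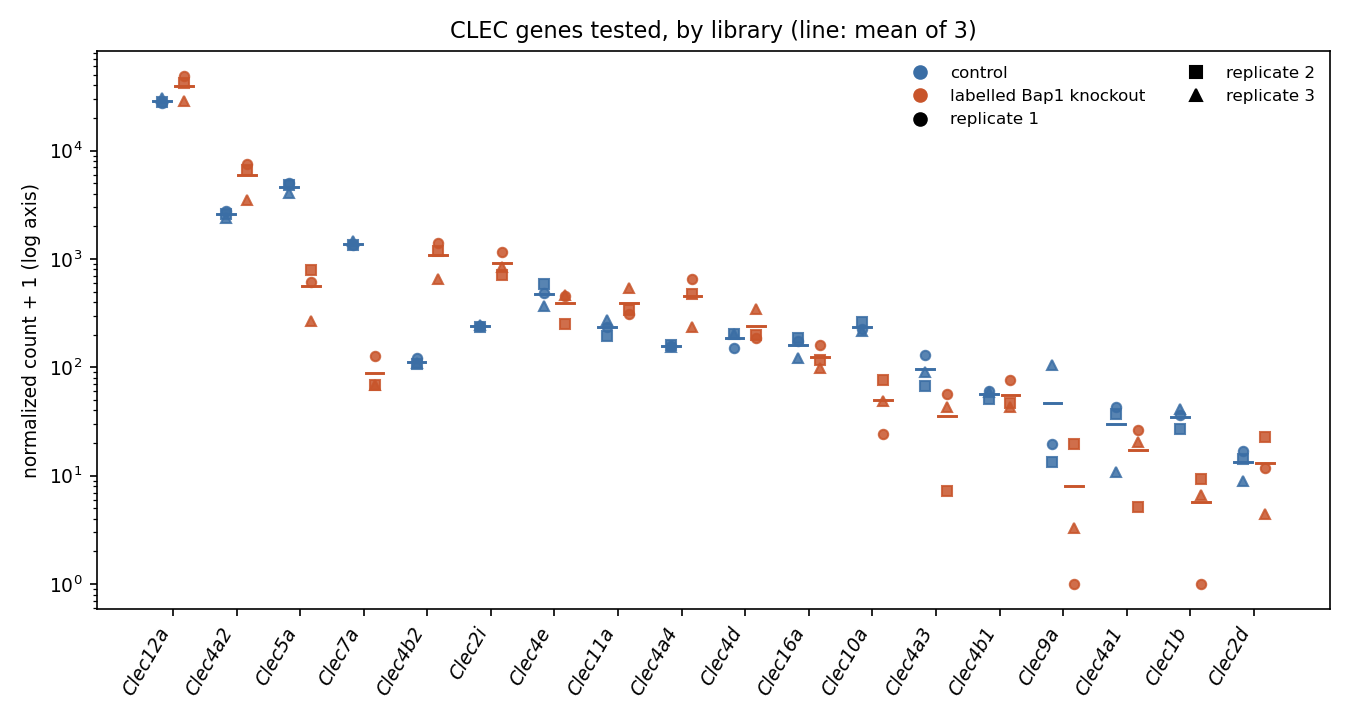
Normalized count plus 1 (log axis) of the 18 tested CLEC genes in each of the 3 control libraries (blue) and 3 libraries labelled Bap1 knockout (orange), ordered by mean level, with marker shape giving the replicate and a line at each group mean. Clec12a stands above all other members in every library, and the groups are fully apart for Clec5a, Clec7a, Clec4b2 and Clec2i.

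Clec12a (MICL), an inhibitory receptor for uric acid crystals and dead cells, dominated the family. It stood at 27408, 27907 and 30778 normalized counts in the controls and at 48638, 41951 and 28835 in the knockout-labelled libraries. Replicates 1 and 2 of the latter lay above every control and replicate 3 lay within the control range. The means of 28698 ± 1819 and 39808 ± 10074 (SD, n = 3 each) did not pass the test: the log2 fold change was 0.44 (SE 0.17, unadjusted 95% interval 0.06 to 0.82) and the limma adjusted p was 0.0787. Without knockout replicate 3 it passed, at 0.66 (adjusted p = 0.00147). It also passed in DESeq2 (0.0212), after GC and length correction (0.70, adjusted p = 0.00252) and with sex as a covariate (0.0352). The last 2 were chosen after the data were seen. Clec12a did not pass in the other 12 of 16 alternatives, among them edgeR (adjusted p = 0.0546) and the removal of any other library. Per kilobase of exon its control level was 5191, which ranked 312 among the tested genes. It made up 70.9 to 75.5% of all CLEC counts in control libraries and 79.1 to 80.0% in knockout-labelled ones, where the groups do not overlap. This share also depends on the other members, of which 5 were higher, Clec4a2 and Clec4b2 among them, and 4 lower, Clec5a and Clec7a among them. It was highest in knockout replicate 3, at 80.0%, where Clec12a itself was 1.00 times the control mean. Summed CLEC counts were 38648, 38784 and 40775 in the controls and 61471, 52978 and 36063 in the knockout-labelled libraries, so the family total overlapped between groups.

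Clec4a2 (DCIR), an ITIM-bearing receptor of myeloid and dendritic cells, was at 2777, 2594 and 2407 normalized counts in controls and at 7501, 6681 and 3510.3 in knockout-labelled libraries. All 3 of the latter exceeded all controls, replicate 3 by the least. The means were 2592 ± 185 and 5898 ± 2108 (SD, n = 3 each), 2.16-fold higher (limma log2 fold change 1.11, SE 0.23, adjusted p = 0.00423). Clec4a4 (DCIR2), a related inhibitory receptor, ran in the same order, from 157, 159 and 152 to 652, 479 and 234, with means of 156 ± 3.76 and 455 ± 209.9. That was 2.67-fold higher (limma log2 fold change 1.42, SE 0.32, adjusted p = 0.00672). Of the 31-base words in Clec4a4 exons, 21.05% also occurred in other genes, 19.4% in Clec4a2, and reads matching several places were left unassigned. The Clec4a4 level is therefore uncertain, as some of its reads could have been dropped.

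The other genes named for DCIR did not pass the test. Clec4a3 was at 128, 66.9 and 90.0 in controls and 55.5, 6.25 and 42.3 in knockout-labelled libraries. The groups did not overlap, and the log2 fold change of -1.83 (SE 0.66) missed the threshold (limma adjusted p = 0.0602). It passed in 6 of 16 alternatives, DESeq2 among them (0.0476), and without knockout replicate 2 its estimate was -0.91 (adjusted p = 0.123). Clec4a1 overlapped between groups, at 41.8, 36.3 and 9.80 against 25.6, 4.16 and 19.4 (limma log2 fold change -0.87, SE 0.75, adjusted p = 0.422).

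Among receptors coupled to FcRγ or DAP12, Clec4b2 rose 9.15-fold and Clec5a fell 9.11-fold. Clec4b2, a member of the DCAR group of activating receptors, was at 119.9, 106 and 109 normalized counts in controls and 1413, 1187 and 646 in knockout-labelled libraries. The lowest knockout-labelled library was still 5.79 times the control mean. The means of 112 ± 7.37 and 1082 ± 394 (SD, n = 3 each) gave an estimate of 3.19 on the log2 scale (SE 0.26, limma adjusted p = 1.28e-05). Per kilobase of exon, Clec4b2 went from a level of 95.05, rank 7133 among tested genes, to 922, rank 1840. Its neighbour Clec4b1, of the same group, was at 59.5, 49.7 and 58.8 in controls and 74.7, 45.8 and 42.3 in knockout-labelled libraries. The estimate for Clec4b1 was -0.09 (SE 0.36, unadjusted 95% interval -0.87 to 0.70, limma adjusted p = 0.883). Of its 31-base words 19.03% were shared with other genes, against 1.49% for Clec4b2. Upstream of the start the 2 genes aligned over 93 columns with 69 identical bases (74.2%), the stretch ending at the start in Clec4b1 and 112 bases before it in Clec4b2.

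Clec5a (MDL-1), which signals through DAP12 and is known as a receptor of monocytes, macrophages and neutrophils, was the second most abundant member in controls per kilobase of exon, at 1207. Its normalized counts were 5009, 4799 and 4100.2 in controls and 617, 787 and 267 in knockout-labelled libraries, which retained 5.76 to 16.98% of the control mean. The means were 4636 ± 476 and 557 ± 265 (SD, n = 3 each; limma log2 fold change -3.19, SE 0.30, adjusted p = 3.6e-05). The partners of these receptors were present in both groups: Fcer1g, the FcRγ chain, was at 7089 ± 289 and 5819 ± 997 (limma adjusted p = 0.121), and Tyrobp, DAP12, at 4244 ± 236 and 4177 ± 849 (0.863).

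Clec4d (MCL) and Clec4e (Mincle), FcRγ-linked receptors for mycobacterial glycolipid and dead cells, overlapped between groups. Clec4e was at 483, 589 and 365 in controls and 452, 248 and 465 in knockout-labelled libraries (limma log2 fold change -0.33, SE 0.26, adjusted p = 0.381). For Clec4d the counts were 148, 204 and 203 against 185, 196 and 345 (limma log2 fold change 0.34, SE 0.27, adjusted p = 0.393). Clec4n (Dectin-2), their fungal mannan-binding relative, had 0 reads in all 3 controls and 23, 10 and 14 reads in the knockout-labelled libraries. Its mean of 16.98 normalized counts was at least 6.21-fold higher than the value that 3 reads per library would have in controls. Clec4n lay below the level needed for the test, and this bound covers counting error only, since the libraries were amplified by PCR without molecular identifiers.

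The 3 receptors that carry a single activating tyrosine motif of their own, Clec7a, Clec1b and Clec9a, all had lower means in the knockout-labelled libraries. Of these, 2 passed the test, beside 15.0% lower over all genes tested. Clec1b and Clec9a had means below 10 in the knockout-labelled libraries and reached the tested level through the controls. Clec7a (Dectin-1), the receptor for fungal β-glucan, was at 1334, 1340 and 1456 normalized counts in controls and at 126, 67.7 and 67.4 in knockout-labelled libraries. Each of the latter held 4.90 to 9.15% of the control mean. With means of 1376 ± 68.7 and 87.0 ± 33.7 (SD, n = 3 each), Clec7a had the largest fold change of the tested members, 16.4-fold lower (limma log2 fold change -4.03, SE 0.24, adjusted p = 1.81e-06). Its rank per kilobase of exon went from 2815 to 9730 among the tested genes.

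Clec1b (CLEC-2), a receptor for podoplanin best known on platelets and megakaryocytes, was low. It had 40, 27 and 45 reads in controls and 0, 8 and 5 in knockout-labelled libraries, or 33.8 ± 7.31 and 4.68 ± 4.26 normalized counts (SD, n = 3 each). The groups did not overlap, and the log2 fold change was -3.11 (SE 0.85, limma adjusted p = 0.0189). Leaving out control replicate 1 (0.0591) or control replicate 3 (0.0712) ended the call, and the estimate was -2.12 without knockout replicate 1. Among megakaryocyte genes, Pf4 was at 1814, 1093 and 2152 in controls and 191, 214 and 217 in knockout-labelled libraries. Itga2b overlapped between groups, at 673, 576 and 826 and at 779, 987 and 2526. Of 8 tested megakaryocyte and platelet markers 0 were higher and 3 lower (background 11.8% and 15.0%). Their summed counts were 2323 to 3739 and 1357 to 3292. Gp6, the platelet collagen receptor, was at 0 in every knockout-labelled library and in 2 of 3 controls. The part of these cells in the Clec1b result was not tested. Clec1b and Clec9a overlap on the same strand over 3.61% and 5.59% of their exon bases.

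Clec9a (DNGR-1), the receptor for filamentous actin of dead cells that marks type 1 conventional dendritic cells, was at 18.7, 12.4 and 105 in controls and 0, 18.7 and 2.28 in knockout-labelled libraries. Control replicate 3 stood far above the other libraries, which overlapped. The log2 fold change was -2.92 (SE 1.10, limma adjusted p = 0.0697). Without knockout replicate 2 it was -4.07 and passed (0.0234), as it did in DESeq2 (0.0394), and without control replicate 3 it was -2.02 (0.284). With CPM, where the 1 added before the log weighs more on low genes, the estimate was -1.003 (0.0815). Xcr1, another gene of the same dendritic cells, was at 71.1, 39.2 and 121 in controls and 5.33, 33.3 and 7.99 in knockout-labelled libraries, with its highest value in the same library. Of 10 tested conventional dendritic cell markers, 0 were higher and 6 lower (background 11.8% and 15.0%). Their summed counts were 7018 to 22271 in controls and 1856 to 4741 in knockout-labelled libraries. Whether the number of such cells set the Clec9a values was not tested.

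Clec10a (MGL1), a scavenging receptor for galactose-type sugars on macrophages and dendritic cells, fell in every knockout-labelled library. It was at 224, 259.9 and 214 in controls and at 23.5, 75.0 and 48.0 in the others, with means of 233 ± 24.2 and 48.8 ± 25.8 (SD, n = 3 each). The difference was 5.17-fold (limma log2 fold change -2.37, SE 0.38, adjusted p = 0.00104). Its close copy Mgl2 shares 13.7% of the 31-base words of Clec10a exons and was at 2943 ± 126 and 1795 ± 840 (log2 fold change -0.85, limma adjusted p = 0.0583). Reads from the shared stretches may be missing from both.

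The Clec2 genes encode ligands that NK cells read through receptors of the Klrb1 family. Clec2i (Clr-g), a ligand of Klrb1f, was at 238, 233 and 246 in controls and at 1164, 717 and 843 in knockout-labelled libraries, every one of them at least 3.00 times the control mean. The means were 239 ± 6.49 and 908 ± 230.3 (SD, n = 3 each), 3.71-fold higher (limma log2 fold change 1.89, SE 0.19, adjusted p = 5.86e-05). Clec2d (Clr-b), a ligand of Klrb1b, was near the lower limit, at 16.0, 13.4 and 8.02 against 10.7, 21.9 and 3.43 (limma log2 fold change -0.30, SE 0.74, adjusted p = 0.799). The 2 genes shared 11.3% and 11.8% of their 31-base words with other genes. Klrb1f, the receptor gene for Clec2i, was at 1447 ± 230.2 and 1219 ± 460.2 (limma adjusted p = 0.389) in these cells.

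Clec11a, a secreted growth factor known as SCGF or osteolectin, was at 233, 194 and 272 in controls and 308, 337 and 538 in knockout-labelled libraries. The ranges did not overlap, with means of 233 ± 38.9 and 394 ± 125 (SD, n = 3 each), 1.66-fold higher (limma log2 fold change 0.73, SE 0.24, adjusted p = 0.0442). This was the weakest of the 9 calls and was lost in 7 of 16 alternatives, among them the removal of control replicate 1 (0.093), control replicate 2 (0.156), control replicate 3 (0.0587), knockout replicate 2 (0.0641) and knockout replicate 3 (0.138). Clec16a, an endosomal protein of the mitophagy pathway that is a lectin in name only, overlapped between groups at 172, 184 and 120.3 against 159, 117 and 97.1 (limma log2 fold change -0.36, SE 0.28, adjusted p = 0.376).

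**Figure D2:**
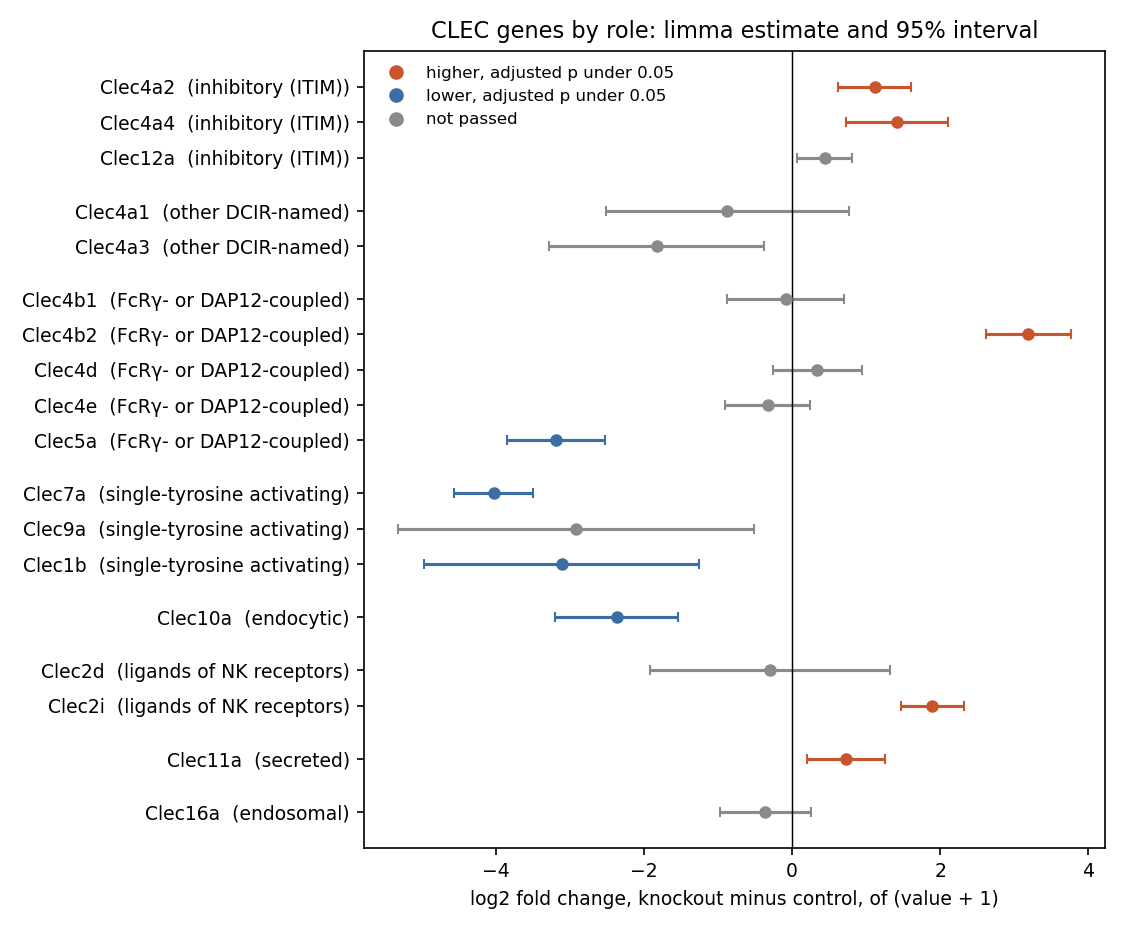
Limma log2 fold change of (normalized count + 1), knockout-labelled minus control, with the unadjusted 95% interval, for the 18 tested CLEC genes grouped by role (orange, higher and blue, lower at an adjusted p under 0.05; grey, not passed). Inhibitory Clec4a2 and Clec4a4 lie to the right at 1.11 and 1.42, the tyrosine-motif receptors Clec7a, Clec9a and Clec1b to the left between -4.03 and -2.92, and the adaptor-coupled genes run from -3.19 (Clec5a) to 3.19 (Clec4b2).

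The 8 members with reads below the tested level were few-read genes. Clec1a, a relative of Clec1b known from endothelium and dendritic cells, had 38, 0 and 24 reads in controls and 0, 1 and 0 in knockout-labelled libraries. Clec2f had 5, 9 and 9 reads against 19, 13 and 1. Clec2l, with 21 reads, was seen in knockout replicate 3 alone. Clec2g had 4, 1 and 3 reads against 7, 3 and 6. Clec18a, Clec2h and Clec12b had at most 9 reads in any library. No read was found for Clec14a, an endothelial receptor, for Clec2e, Clec2j, Clec3a and Clec3b, or for Clec4f and Clec4g, receptors of Kupffer cells and of liver endothelium. Of 6 endothelial and stromal marker genes, 5 had reads and 3 were tested, of which 0 were higher and 2 lower, with summed counts of 1079 to 1398 in controls and 859.8 to 1406 in knockout-labelled libraries. The remaining marker, Cdh5, had no read.

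The knockout-labelled libraries differed among themselves more than the controls did. All 18 tested members had a larger coefficient of variation in them, as did 67.8% of all genes tested. The median was 13.6% in controls and 37.9% in knockout-labelled libraries for the members, against 12.3% and 19.2% for all genes. In 3 of the 5 higher members, Clec4a2, Clec4a4 and Clec4b2, replicate 1 exceeded replicate 2 and replicate 2 exceeded replicate 3, an order found in 20.1% of all genes tested and 11.6% of the 1695 higher ones, and noticed after the values were seen. Clec4a2 was 2.89, 2.58 and 1.35 times the control mean in those libraries, Clec4a4 4.18, 3.07 and 1.503 times, and Clec4b2 12.7, 10.6 and 5.79 times. Clec12a ran the same way at 1.69, 1.46 and 1.00. Clec11a ran the opposite way, at 1.32, 1.45 and 2.31, and Clec2i followed neither order at 4.87, 3.00 and 3.52. Replicate 3 was the female library of its group and held the fewest gene reads, 19.5 M, and its part in this order was not tested.

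**Figure D3:**
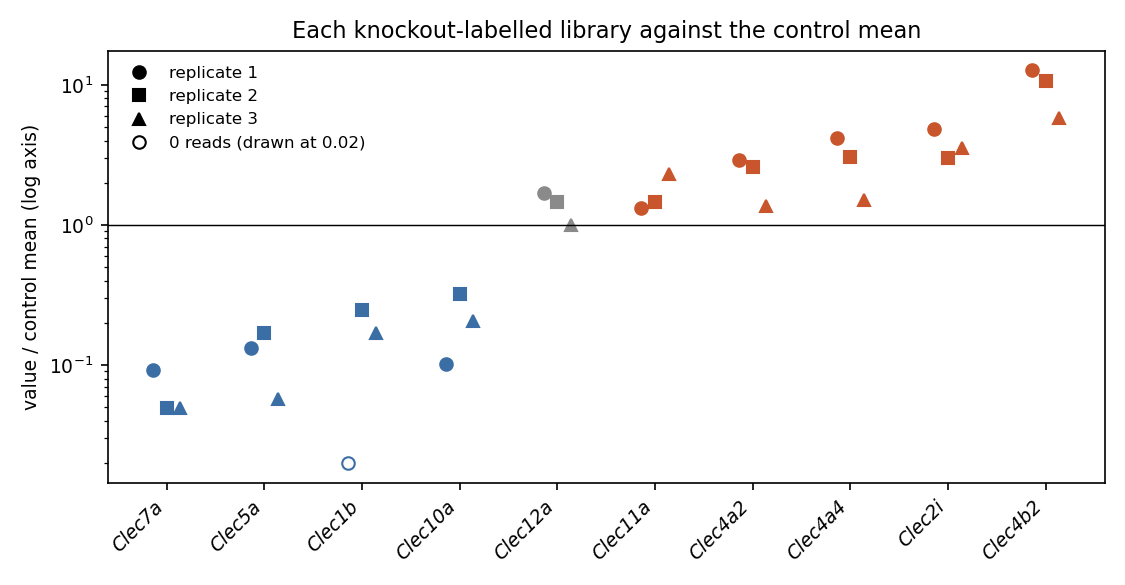
Normalized count of each library labelled Bap1 knockout divided by the control mean (log axis; marker shape gives the replicate) for the 9 called members and Clec12a (orange, higher; blue, lower; grey, not passed; 0 reads drawn as an open circle at 0.02). Clec4b2 spans 5.79 to 12.7 and Clec7a 0.0490 to 0.0915, and replicate 3 is the lowest of the 3 for Clec12a, Clec4a2, Clec4a4 and Clec4b2.

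By the gene order of RefSeq GRCm38.p6, 25 of the 33 members lie on chromosome 6. Apart from Clec10a on chromosome 11, Clec11a on 7 and Clec16a on 16, all tested members are there. All Clec4 genes but Clec4f and Clec4g form a run of 9 members with no other protein-coding gene between them. The run goes in the order Clec4a1, Clec4a3, Clec4a4, Clec4b1, Clec4a2, Clec4b2, Clec4n, Clec4d and Clec4e. Of its 8 tested members 3 were higher, 0 lower and 5 did not pass. The higher genes Clec4a2 and Clec4b2 are adjacent, and Clec4b1 lies between Clec4a4 and Clec4a2. A longer stretch from Clec2h to Clec7a holds 12 members and 7 other genes. Among the latter is Clec2m of RefSeq, which the symbols used here call 4922502D21Rik, so it was not a member. Its normalized counts were 2.67 to 21.9 over the libraries, and its test result was not looked up under that symbol. Of its 6 tested members 1 was higher (Clec2i), 2 were lower (Clec1b and Clec7a) and 3 did not pass. Of 5 tested other genes there, 0 were higher and 3 lower: Cd69, an activation marker, at 2289 and 689 (log2 fold change -1.74, limma adjusted p = 1.04e-05), Klrb1c, an NK receptor, at -2.41 (0.0185) and BC035044 at -0.46 (0.00798). The nearest tested genes on either side of Clec2i were BC035044 and Klrb1f, of which the former fell and the latter did not pass.

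**Figure D4:**
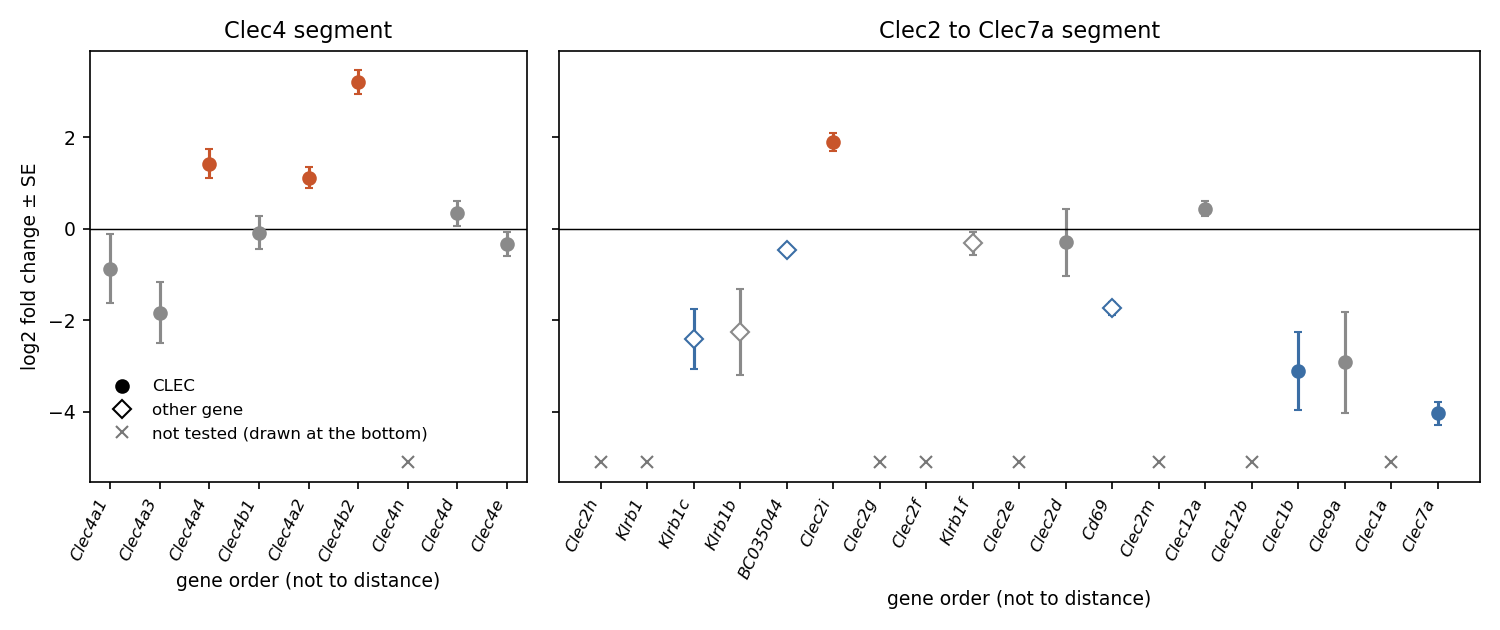
Limma log2 fold change with its SE, knockout-labelled minus control, of genes in their order along chromosome 6 (spacing not to distance) in the Clec4 segment (left) and the Clec2h to Clec7a segment (right); filled circles are CLEC genes, open diamonds other genes and crosses genes not tested (orange, higher; blue, lower; grey, not passed). The left panel spans -1.83 at Clec4a3 to 3.19 at Clec4b2, and in the right panel Clec2i at 1.89 is the sole orange point. The cross at Clec2m marks a name that did not match the symbols used for the counts.

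Of 26 tested signalling genes used by these receptors, 5 were higher, 2 lower and 19 did not pass, with a median log2 fold change of 0.01. The 7 called of 26 are close to the background of 26.8% over all genes. Card9, the adaptor that links Syk to NF-κB below Clec7a and the FcRγ-coupled receptors, was at 184, 256.1 and 177 in controls and 416, 651 and 571 in knockout-labelled libraries, 2.64-fold higher (limma log2 fold change 1.399, SE 0.23, adjusted p = 0.00103). The transcription factor genes Nfkb1 (0.60, adjusted p = 0.00265) and Nfatc1 (0.80, 0.0042) were higher too. Vav3, an exchange factor, was lower at -0.996 (0.00121), as was Lyn, a kinase gene, at -0.49 (0.0197). Syk was at 1152 ± 88.0 and 1076 ± 72.8 (SD, n = 3 each; adjusted p = 0.623). The count of lower genes was 4 with CPM (counts scaled to each library's gene reads), 5 after GC and length correction, and 1 to 4 when 1 library was left out.

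**Figure D5:**
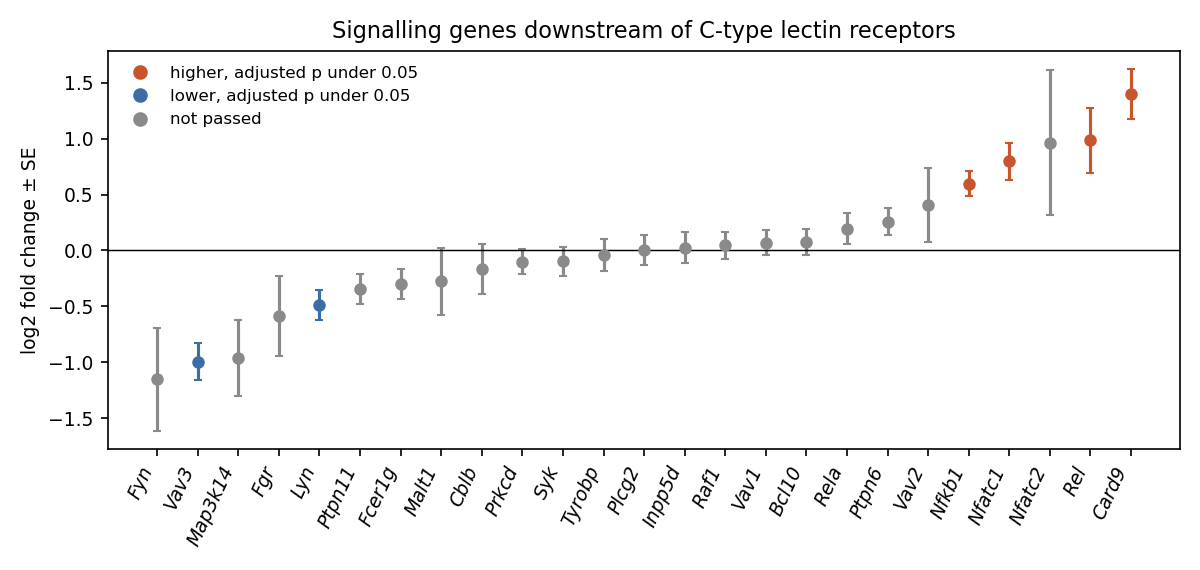
Limma log2 fold change of (normalized count + 1) with its SE, knockout-labelled minus control, for 25 of the 26 tested signalling genes in rising order (orange, higher; blue, lower; grey, not passed). Card9 is highest at 1.399, while Syk, Tyrobp and Fcer1g lie between -0.30 and -0.04.

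Of 13 tested genes for ligands and partners of CLEC receptors, 1 was higher, 3 lower and 9 did not pass (median log2 fold change -0.32). The background over all genes tested was 11.8% higher and 15.0% lower. Mmrn1, encoding the platelet protein multimerin 1, was at 80.0, 84.1 and 93.6 in controls and 12.8, 1.04 and 3.43 in knockout-labelled libraries (log2 fold change -4.12, limma adjusted p = 0.00109). The integrin genes Itgb2 and Itgal moved apart, at 0.66 (0.00376) and -0.77 (0.00363). Klrb1c, named above, was the remaining lower gene. Pdpn, the Clec1b ligand podoplanin, was at 0 in controls and 1.14 in 1 knockout-labelled library.

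Of 33 tested genes for C-type lectin domain proteins outside the CLEC name, 0 were higher in limma (1 at an unadjusted p under 0.05, 0 in edgeR and 1 in DESeq2), 18 were lower and 15 did not pass, with a median log2 fold change of -1.79. Several of the lower genes reached the tested level through the controls alone, such as Klra7, Klra8 and Klre1 with 0 in every knockout-labelled library. Such genes could only come out lower, so this count and median depend in part on the filter. With a mean of at least 50, 16 were tested, of which 1 was higher and 9 were lower. Cd93, a receptor of myeloid progenitors and endothelium, was at 3765 ± 706 and 859.9 ± 66.7 (SD, n = 3 each; log2 fold change -2.12, limma adjusted p = 5.47e-06). Cd69 is given above. Prg3, an eosinophil granule protein gene, was at -1.79 (8.64e-05) and Cd72, an inhibitory receptor gene, at -1.23 (0.000706). Klr genes, many of them NK cell receptors, made up 10 of the 18. Of 5 tested NK and T cell markers 4 were lower, 2 of which (Klrk1 and Klrb1c) are among those Klr genes, and the others were Ncr1 and Gzmb. The fifth, Nkg7, was higher, at 28954 and 46708 (log2 fold change 0.67, limma adjusted p = 0.00756). The part of NK cell RNA in these counts was not tested. Over all genes tested, 11.8% were higher and 15.0% lower. Of the CLEC members, 5 of 18 were higher, and the difference between the lists was not tested.

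Values of factors known to act on myeloid genes were set beside the members. Of 11 tested myeloid transcription factor genes, 3 were higher, 4 lower and 4 did not pass, beside a background of 11.8% higher and 15.0% lower. Irf8, which directs monocyte and dendritic cell development, was at 6208, 5914 and 5677 in controls and 1238, 2361 and 587 in knockout-labelled libraries (limma log2 fold change -2.31, SE 0.36, adjusted p = 0.000833). Tcf4, Klf4 and Zbtb46 were also lower. Gfi1 (0.76, adjusted p = 0.00451) and Cebpe (0.86, 0.00914), genes of the granulocyte branch, and Id2 (0.81, 0.0306) were higher. Spi1, encoding PU.1, was at 3076 ± 86.8 and 3992 ± 1257 (adjusted p = 0.206).

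Markers of several other lineages were lower in the knockout-labelled libraries, but erythroid markers were not. Of 6 tested erythroid markers, 3 were higher and 0 lower. Their summed counts were 956 to 1520 in controls and 1940 to 4342 in knockout-labelled libraries. Over all genes tested, the background was 11.8% higher and 15.0% lower. All 6 tested B cell markers were lower, as were 4 of 6 eosinophil markers and 4 of 8 basophil and mast cell markers, with 0, 1 and 1 higher. Of 11 tested monocyte and macrophage markers, 0 were higher and 10 lower, and Csf1r, the M-CSF receptor gene, was at 2426, 2263 and 2121 in controls and 431, 724 and 238 in knockout-labelled libraries. Knockout replicate 3 was the lowest of the 3 for both Csf1r and Clec5a, and replicate 2 the highest. Clec7a and Clec10a did not follow that order. In knockout replicates 1, 2 and 3, Clec7a was at 126, 67.7 and 67.4 and Clec10a at 23.5, 75.0 and 48.0. The summed counts of that list overlapped, 82948 to 93746 against 51741 to 105366, because Ly6c2, at 46716 to 98227 in knockout-labelled libraries, makes up most of the sum. All 7 tested plasmacytoid dendritic cell markers were lower, with sums of 2243 to 2771 and 356 to 612. Of 12 tested neutrophil markers, 2 were higher and 1 lower. The part of these cells in the Clec5a, Clec7a and Clec10a results was not tested.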

How the data were processed

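The samples were sorted GMPs, 3 libraries in each of 2 groups. Per the submitters' processing notes, the tools were BWA 0.7.5a, STAR, Picard, HTSeq and DESeq2 and the builds NCBIM37 and mm9, with no role named. Use of strand in counting was not given in the sources used here. Deposited values are a scaled signal, called normalized counts in the text: the authors divided the counts of each library by its own size factor. In every library 100% of non-zero values fell on multiples of a smallest step (tolerance 0.02 read), which was 0.8885 to 1.1419 and gave back whole reads. Genes held 22.9 to 25.2% of the reads listed, reads outside genes 38.4 to 40.9% and reads with several alignments 26.8 to 28.8%; the 5 rows that name no gene were left out of library sizes and tests. Symbols came from GENCODE M21 for 32897 gene IDs.

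The test was limma 3.58.1 in R 4.3.3 on log2(value + 1), its prior following the mean level, for genes with a mean of at least 10, group as the sole term, 2-sided, adjusted by Benjamini-Hochberg; such fold changes understate low genes. Coefficients of variation used the values themselves. The fit was tested on simulated data. Alternatives were edgeR 4.0.16 and DESeq2 1.42.0 on recovered reads, CPM (counts scaled to each library's gene reads), pseudocounts of 0.5 and 4, a mean of at least 50, no filter beyond 1 read, a replicate block and leaving out each library; GC and length correction and a sex covariate were chosen after seeing the data. In the CPM fit 1 was added to each CPM before the log, which understates low genes more than the main fit. Promoters and gene order came from RefSeq tables on GRCm38.p6.

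The members and gene lists were chosen with earlier results of these data known. The rule for named genes took every tested member, up to 5 members below the tested level with their values, up to 4 called genes per list and direction by adjusted p, and Bap1, Syk, Card9, Fcer1g, Tyrobp, Spi1 and Irf8. The remaining members were named so that all are accounted for. Other genes named (Mgl2, Klrb1f, Pdpn, BC035044, Mpo, Itga2b, Gp6, Cdh5, Nkg7, Ly6c2 and Csf1r) were chosen after their values were seen. For 1 signalling gene the result is not reported here.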

Additional observations from a re-analysis of the deposited data

How the results depend on the processing

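Clec4a2, Clec4a4, Clec4b2, Clec2i, Clec5a, Clec7a and Clec10a kept their direction and their call in all 16 alternatives. Over members and alternatives, 260 of 284 results stayed on their side of the threshold in the same direction, 12 gained a call, 9 lost it and 3 changed sign. Those 3 were members without a call: Clec4b1 at 0.0095 without knockout replicate 2 and 0.0666 without knockout replicate 3 (range with 1 library left out -0.34 to 0.0666), and Clec2d at 0.33 without knockout replicate 3 (range -0.86 to 0.33). Clec11a also lost its call with CPM (adjusted p = 0.0739) and with no filter (0.0605). The Clec1b estimate was -1.05 with CPM, -2.25 with a pseudocount of 4 and -3.73 without knockout replicate 2. In the CPM fit 1 was added to each CPM before the log, in libraries of 19.5 to 25.9 M gene reads. Clec1b had at most 45 reads, so this added 1 weighs far more on it than 1 normalized count does. The cause of the change without knockout replicate 2 was not tested. When 1 library was left out, all-gene calls ran from 1058 to 1796 higher and 1413 to 2354 lower, CLEC calls from 4 to 5 higher and 3 to 5 lower, lower signalling genes from 1 to 4, and other lectin genes from 0 to 1 higher. Lower signalling genes were 4 with CPM and 5 after GC and length correction. Other lectin genes had 1 higher with DESeq2, a mean of at least 50, the block, GC and length correction or the sex covariate, and 9 lower with a mean of at least 50, where 16 were tested. Ligand and partner genes had 2 higher after GC and length correction, 5 lower with CPM and 1 lower with a mean of at least 50. The CLEC median ran from -0.51 to 0.13, above 0 with a mean of at least 50 and with no filter.

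Samples with the same replicate number did not deviate together (r = -0.10, 0.04 and -0.06), beside -0.07 to 0.12 for different numbers. The numbers thus gave no sign of pairing, but so few samples cannot exclude it. With replicate number as a block, calls were 1550 higher and 2014 lower over all genes and 5 and 5 in the CLEC genes, Clec4a3 passing at -1.83 (limma adjusted p = 0.0179).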
